A study of Mus musculus with 6 samples.

Results

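Imprinted genes are genes of which the copy inherited from only 1 parent is transcribed. The 10 imprinted genes described here were H19, Meg3, Mest, Peg3, Plagl1, Dlk1, Grb10, Ndn, Cdkn1c and Snrpn, taken from a table of 41721 genes by their gene names. Rows named for 9 of the 10 were found, and H19 was found by position alone. RNA was measured in 6 libraries, 3 from Pdk4fl/fl and 3 from Pdk4SMKO mouse aortic smooth muscle cells (MASMCs), which were cultured from the abdominal aorta and all exposed to angiotensin II (Ang II). The study's methods give 10-week-old male mice as the source, and its supplement gives 1 μM Ang II for 48 h. Both genotypes carried Pdk4 alleles with loxP sites and received tamoxifen, and the Pdk4SMKO mice also carried a Cre recombinase driven by the Myh11 promoter. Cells that never expressed Myh11 therefore keep the floxed alleles, and the cells were passaged before sequencing. The supplement gives n = 3 biological replicates for the sequencing of these cells. Neither it nor the labels say whether the 3 libraries of a genotype came from separate mice or cultures. The p-values therefore measure the spread between these libraries alone.

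Imprinting is set in the germ line, where DNA methylation is laid down on 1 parental copy of a control region and then kept through cell division. Most imprinted genes lie in clusters that share such a region, and a cluster holds both maternally and paternally expressed genes. Many of them regulate growth before birth and are turned down in most tissues afterwards. These libraries count RNA from both copies together, so transcription of the silent copy and stronger transcription of the active copy cannot be told apart. In bulk RNA, more cells of a type and more RNA per cell cannot be told apart either.

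Total counts ran from 16526044 to 22481670 per library, and 3 counts in a library, the floor used here for detection, stood for 0.132 to 0.227 CPM, the count per 1e6 counts of the library, after TMM scaling. The floor covers counting error only. Pdk4, the targeted gene, had 570, 639 and 421 counts in Pdk4fl/fl and 110, 182 and 141 counts in Pdk4SMKO libraries, a log2 fold change of -2.34 (SE 0.22, adjusted p = 4.49e-06). Xist, the RNA that silences 1 X chromosome in female cells, had 3, 4 and 5 counts in Pdk4fl/fl and 610, 347 and 321 counts in Pdk4SMKO libraries, although the study's methods name male mice. The methods also state that the Cre transgene is Y-linked and reaches male offspring only, so Xist RNA in the Pdk4SMKO libraries is at odds with the stated genotype. Genes of the Y chromosome were not examined, and the sex of the cells was not tested. Sex and genotype cannot be told apart where both move together. Smooth muscle markers were present in both genotypes, with summed levels of 787 to 812 CPM in Pdk4fl/fl and 730 to 960 CPM in Pdk4SMKO libraries, yet Myh11 itself stood at 0.612 ± 0.125 and 2.39 ± 0.290 CPM (SD, n = 3 each). A gene was called when edgeR's quasi-likelihood test gave an adjusted p under 0.05 over all 14085 genes tested and the change was at least 2-fold. By that rule 26.5% of all tested genes were lower and 32.8% were higher in Pdk4SMKO cells, so a call by itself was common.

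Of the 10 imprinted genes, 8 passed the filter on low counts and were tested. Grb10, Ndn, Meg3, Dlk1 and Peg3 were higher in Pdk4SMKO cells, Plagl1 and Cdkn1c were lower, and Snrpn was not called. Thus 5 of the 8 tested genes were called higher beside 32.8% of all tested genes, and 2 of 8 were called lower beside 26.5%. Grb10, Ndn, Meg3 and Dlk1 passed the filter through their Pdk4SMKO counts, and Cdkn1c through its Pdk4fl/fl counts. The shares called higher and lower among genes that passed are therefore a description only. The 3 libraries of one genotype did not overlap the 3 of the other in 7 of the 8, which was also so for 81.8% of all tested genes. Grb10, Ndn and Meg3 had 0 counts in every Pdk4fl/fl library, which held for 258 of the 14085 tested genes (1.83%). The median log2 fold change of the 8 tested genes was 4.60, also with these 3 set to their lower bounds, beside 0.12 over all tested genes. Because of the filter, this median and the number of tested genes at 0 are descriptions only as well.

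**Figure D1:**
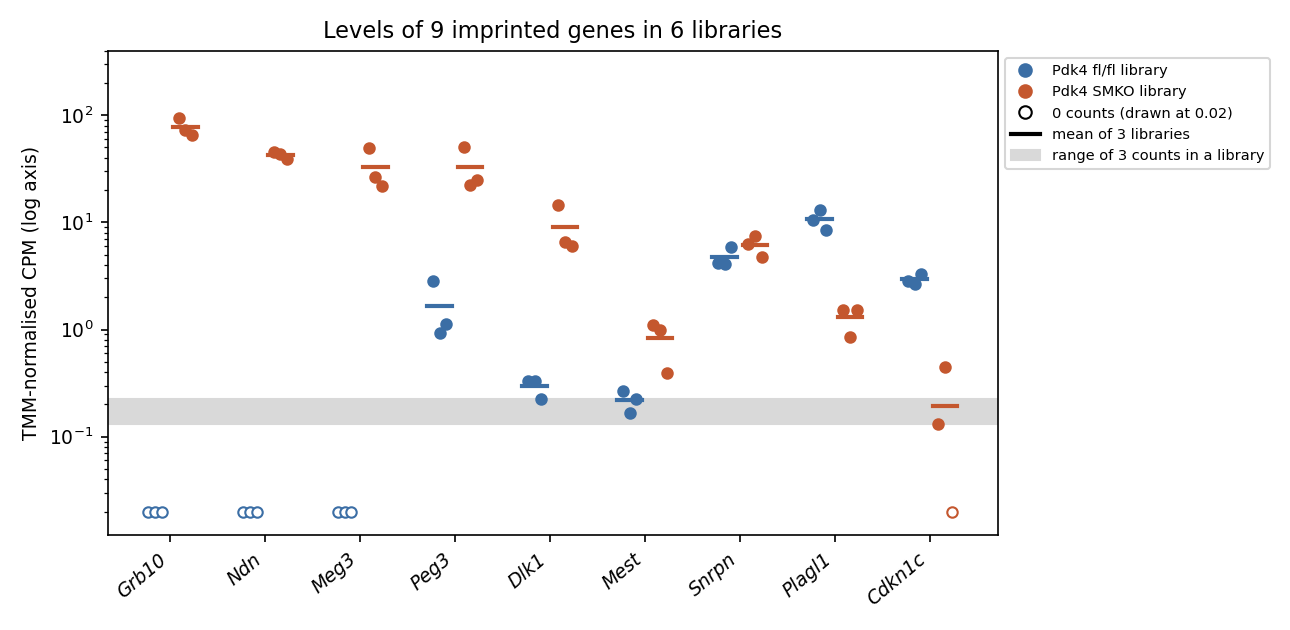
TMM-normalised CPM (log axis) of the 9 imprinted genes with a named row in each of 6 libraries, with blue points for Pdk4fl/fl, orange points for Pdk4SMKO, lines for the means of 3 libraries and open points for 0 counts. Grb10, Ndn and Meg3 sit at 0 in Pdk4fl/fl and between 21.9 and 95.1 CPM in Pdk4SMKO, while Plagl1 and Cdkn1c show the opposite order.

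The 5 promoters below belong to the genes with a listed promoter that differed most in mean CPM, 4 that were higher and Plagl1 that was lower, and they are printed because the control of imprinted genes runs through methylation of CG dinucleotides. The sequences are those of RefSeq on GRCm38.p6, which is not the assembly of the count table. Each runs from 250 bases before to 50 bases after the most upstream listed start, and capitals mark every CG dinucleotide.
Grb10 promoter, chr11:12037371-12037670, minus strand: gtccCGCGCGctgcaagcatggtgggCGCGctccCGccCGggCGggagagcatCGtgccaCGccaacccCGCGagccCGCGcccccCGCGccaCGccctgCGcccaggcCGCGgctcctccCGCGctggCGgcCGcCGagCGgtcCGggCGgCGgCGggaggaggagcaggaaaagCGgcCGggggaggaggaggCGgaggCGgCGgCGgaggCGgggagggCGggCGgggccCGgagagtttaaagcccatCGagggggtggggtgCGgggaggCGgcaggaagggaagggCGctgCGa
Ndn promoter, chr7:62348027-62348326, plus strand: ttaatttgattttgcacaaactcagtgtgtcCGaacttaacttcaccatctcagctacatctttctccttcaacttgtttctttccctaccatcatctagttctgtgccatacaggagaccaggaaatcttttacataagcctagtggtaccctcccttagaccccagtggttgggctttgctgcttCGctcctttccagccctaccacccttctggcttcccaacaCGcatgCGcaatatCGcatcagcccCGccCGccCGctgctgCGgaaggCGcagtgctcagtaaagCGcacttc
Meg3 promoter, chr12:109540746-109541045, plus strand: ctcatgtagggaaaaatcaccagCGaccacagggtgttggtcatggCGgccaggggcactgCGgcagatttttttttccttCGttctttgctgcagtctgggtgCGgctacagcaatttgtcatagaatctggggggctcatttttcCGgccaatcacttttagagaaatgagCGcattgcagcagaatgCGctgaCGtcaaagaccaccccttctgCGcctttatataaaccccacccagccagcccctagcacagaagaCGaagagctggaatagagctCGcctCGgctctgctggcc
Peg3 promoter, chr7:6730370-6730669, minus strand: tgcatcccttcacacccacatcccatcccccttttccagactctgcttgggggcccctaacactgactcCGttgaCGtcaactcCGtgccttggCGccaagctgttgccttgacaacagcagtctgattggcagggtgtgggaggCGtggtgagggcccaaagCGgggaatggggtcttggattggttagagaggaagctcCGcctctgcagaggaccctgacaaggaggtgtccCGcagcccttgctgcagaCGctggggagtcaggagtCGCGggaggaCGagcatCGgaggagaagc
Plagl1 promoter, chr10:13090582-13090881, plus strand: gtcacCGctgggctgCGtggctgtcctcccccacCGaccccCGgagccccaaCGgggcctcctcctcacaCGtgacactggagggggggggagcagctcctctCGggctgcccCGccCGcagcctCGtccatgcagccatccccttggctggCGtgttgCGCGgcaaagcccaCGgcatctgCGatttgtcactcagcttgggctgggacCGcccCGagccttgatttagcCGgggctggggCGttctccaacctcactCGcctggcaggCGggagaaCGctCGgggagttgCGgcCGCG

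Among the 10 imprinted genes, 8 had a promoter in the RefSeq table. In the most upstream window of each, the CG counts were 45 for Grb10, 26 for Plagl1, 13 each for Meg3 and Peg3, 11 for Ndn, 9 for Dlk1, 8 for Mest and 2 for Snrpn, beside a median of 7 over 32851 promoters of the same length. Grb10 lay at percentile 98.35 of all promoters. The hexamer TGCCGC, the core bound by the imprint-protecting factor ZFP57 when methylated, was searched on both strands. It occurred in the most upstream windows of Grb10, Plagl1 and Meg3, that is in 3 of 8, and in 11.6% of all promoters. Windows at later starts of Mest and Snrpn held it too, with 17 CG dinucleotides in those of Mest and 7 in that of Snrpn. Counted over every listed start, 5 of the 8 genes held the hexamer, as did 13.1% of the 27025 genes in the table, and genes with more starts have more windows to hold it. The motif GGGGCCCC, a palindrome known as a binding site of PLAGL1, occurred in Peg3 and in 1.08% of all promoters. H19 and Cdkn1c had no listed promoter, so Plagl1 was the only gene called lower with a window. Its window and those of the genes called higher held more CG dinucleotides than the median. Methylation was not measured in these samples.

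Grb10 and Dlk1 act on growth signals at the cell surface. GRB10 is an adaptor protein that binds the insulin and IGF1 receptors and restrains their signalling, and its gene is expressed from the maternal copy in most tissues outside the brain. Grb10 (MGP_C57BL6NJ_G0018441, chromosome 11, 9551231 to 9662406) had 0, 0 and 0 counts in the Pdk4fl/fl libraries and 2168, 1468 and 1322 counts in the Pdk4SMKO libraries. All 3 Pdk4SMKO libraries were high, at 77.6 ± 15.7 CPM (SD, n = 3), and the groups did not overlap. Set against the floor of 3 counts per library, Grb10 was at least 394-fold higher in Pdk4SMKO cells (edgeR quasi-likelihood test, adjusted p = 6.61e-08).

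DLK1 is a transmembrane protein with EGF-like repeats, related to the Notch ligands, and marks immature mesenchymal and adipose precursor cells. Its gene is expressed from the paternal copy. Dlk1 (MGP_C57BL6NJ_G0020499, chromosome 12, 115078997 to 115089655) had 5, 6 and 3 counts in the Pdk4fl/fl libraries, close to the floor. In the Pdk4SMKO libraries it had 329, 132 and 123 counts. The means were 0.296 ± 0.060 and 9.01 ± 4.70 CPM (SD, n = 3 each), with replicate 1 of Pdk4SMKO the highest and no overlap between groups. The log2 fold change was 4.88 (SE 0.48, edgeR adjusted p = 6.43e-06).

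Peg3, Plagl1 and Ndn encode nuclear proteins and are expressed from the paternal copy. PEG3 is a zinc-finger protein that binds DNA and takes part in the control of growth and apoptosis. Peg3 (MGP_C57BL6NJ_G0032059, chromosome 7, 4010910 to 4037439) had 43, 17 and 15 counts in the Pdk4fl/fl libraries and 1152, 448 and 506 counts in the Pdk4SMKO libraries. Replicate 1 was the highest of its group in both genotypes, and the lowest Pdk4SMKO library, at 22.3 CPM, stood above the highest Pdk4fl/fl library, at 2.86 CPM. The log2 fold change was 4.32 (SE 0.45, edgeR adjusted p = 9.68e-06), and 4.98 without Pdk4fl/fl replicate 1.

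NDN, or necdin, is a MAGE-family protein that restrains proliferation, above all in neurons and precursor cells. Ndn (MGP_C57BL6NJ_G0032810, chromosome 7, 66191116 to 66192767) had 0, 0 and 0 counts in the Pdk4fl/fl libraries and 1039, 872 and 794 counts in the Pdk4SMKO libraries. Its level of 42.6 ± 3.39 CPM (SD, n = 3) varied less between the Pdk4SMKO libraries than those of Grb10, Meg3, Dlk1 and Peg3 did. Ndn was at least 216-fold higher in Pdk4SMKO cells (edgeR adjusted p = 4.69e-08).

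PLAGL1, also known as ZAC1, is a zinc-finger transcription factor that can arrest the cell cycle and activates other imprinted genes. Plagl1 (MGP_C57BL6NJ_G0017416, chromosome 10, 10734243 to 10807756) moved the other way from Peg3 and Ndn. It had 158, 237 and 112 counts in the Pdk4fl/fl libraries and 35, 17 and 31 counts in the Pdk4SMKO libraries. Every Pdk4fl/fl library was above every Pdk4SMKO library, with means of 10.7 ± 2.27 and 1.30 ± 0.394 CPM (SD, n = 3 each). The log2 fold change was -3.03 (SE 0.30, edgeR adjusted p = 6.24e-06).

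CDKN1C, or p57, inhibits cyclin-dependent kinases and slows growth of the embryo, and its gene is expressed from the maternal copy. Cdkn1c (MGP_C57BL6NJ_G0033765, chromosome 7, 154124303 to 154127003) had 43, 49 and 44 counts in the Pdk4fl/fl libraries and 3, 9 and 0 counts in the Pdk4SMKO libraries. The Pdk4fl/fl level of 2.96 ± 0.330 CPM (SD, n = 3) was low but even, and 2 of the 3 Pdk4SMKO libraries were at or under the floor. The log2 fold change was -3.91 (SE 0.65, edgeR adjusted p = 2.94e-04), and -5.28 without Pdk4SMKO replicate 2, the only library of that genotype above the floor. The related inhibitors Cdkn1a and Cdkn1b, which are not imprinted and were named after their values were seen, were higher in Pdk4SMKO cells. Cdkn1a had a log2 fold change of 3.01 (SE 0.26, edgeR adjusted p = 2.14e-06) and Cdkn1b one of 1.57 (SE 0.15, edgeR adjusted p = 4.36e-06). They belong to 8 listed relatives of the imprinted genes. Of the 7 tested, 5 were called higher and 1 lower, beside 32.8% and 26.5% of all tested genes. Dlk2 and Grb14 were called higher like Dlk1 and Grb10, with log2 fold changes of 3.18 and 1.73. Plagl2 was called higher unlike Plagl1, at 1.56.

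Meg3 and H19 are noncoding RNAs expressed from the maternal copy, and each lies in a cluster with a paternally expressed growth gene. Meg3 (MGP_C57BL6NJ_G0005527, chromosome 12, 115182257 to 115219843) had 0, 0 and 0 counts in the Pdk4fl/fl libraries and 1136, 529 and 447 counts in the Pdk4SMKO libraries. The Pdk4SMKO level was 32.7 ± 15.0 CPM (SD, n = 3), again with replicate 1 the highest. Meg3 was at least 166-fold higher in Pdk4SMKO cells (edgeR adjusted p = 2.24e-06). An unnamed lincRNA within Meg3 on the same strand (chromosome 12, 115185500 to 115186376) had 0, 0 and 0 counts in Pdk4fl/fl and 122, 74 and 30 in Pdk4SMKO libraries.

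H19 had no row of its own name. An unnamed lincRNA on chromosome 7 (153178758 to 153184004, minus strand) spans Mir675, the microRNA that lies within H19, and was read as the H19 locus for that reason. It had 0, 0 and 1 counts in the Pdk4fl/fl libraries and 0, 2 and 1 counts in the Pdk4SMKO libraries. All 6 libraries were at or under the floor of 3 counts, so no fold is given and no difference was detectable at this depth. The row of Mir675 itself was at 0 counts in all 6 libraries.

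Snrpn was not called, and Mest was not tested. SNRPN encodes SmN, a core protein of the splicing machinery that is best known from neurons, and is expressed from the paternal copy. Snrpn (MGP_C57BL6NJ_G0032808, chromosome 7, 63428998 to 63606320) had 63, 75 and 78 counts in the Pdk4fl/fl libraries and 143, 149 and 96 counts in the Pdk4SMKO libraries. In CPM the groups overlapped, since replicate 3 of Pdk4SMKO, at 4.70, lay under replicate 3 of Pdk4fl/fl, at 5.90. The log2 fold change was 0.38 (SE 0.26, edgeR adjusted p = 0.204). Snrpn shares its first exons with Snurf, which the table counts apart and which was called higher, and how reads shared by both were assigned is not given in the sources used here. Its close relative Snrpb, named after its values were seen, stood at 293 ± 21.2 and 146 ± 7.64 CPM (SD, n = 3 each), close to the 2-fold limit (edgeR adjusted p = 1.78e-05).

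MEST is a hydrolase-fold protein of the endoplasmic reticulum, expressed from the paternal copy and abundant in embryonic mesoderm. Mest (MGP_C57BL6NJ_G0030981, chromosome 6, 29443876 to 29477882) had 4, 3 and 3 counts in the Pdk4fl/fl libraries and 25, 20 and 8 counts in the Pdk4SMKO libraries, or 0.219 ± 0.051 and 0.828 ± 0.381 CPM (SD, n = 3 each). The groups did not overlap, but the counts were too low for the gene to be tested. An exact two-sided permutation test gave p = 0.1, the smallest that 3 libraries against 3 allow. Fitted without the filter, Mest had a log2 fold change of 1.95 (SE 0.68, edgeR adjusted p = 0.0127). It also passed the filter and was called higher without Pdk4fl/fl replicate 1, 2 or 3 or without Pdk4SMKO replicate 3. Log2 fold changes there ran from 1.73 to 2.25 and edgeR adjusted p from 0.00467 to 0.0466. In those fits Mest passed the filter through its Pdk4SMKO counts, so these calls are a description only. Mest overlaps the end of Copg2 on the other strand, a more abundant gene, and the use of strand in counting is not given in the sources used here.

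Compared per kilobase of gene length, the order of the levels differed between the genotypes. In Pdk4SMKO cells Ndn led with 25.8 ± 2.05 CPM per kilobase, followed by Grb10 with 8.79 ± 1.77 (SD, n = 3 each), and the libraries of both stood apart from each other and from the rest. Snrpn, Peg3, Meg3 and Dlk1 came next, with means of 2.84, 2.44, 1.91 and 1.58 CPM per kilobase, and each of these overlapped its neighbour in the order. Mest, Plagl1 and Cdkn1c were the lowest, at 0.210, 0.170 and 0.0999 CPM per kilobase, and likewise overlapped. In Pdk4fl/fl cells Snrpn led with 2.19 ± 0.466 CPM per kilobase, followed by Cdkn1c with 1.53 ± 0.171 and Plagl1 with 1.39 ± 0.297, and the libraries of Cdkn1c and Plagl1 overlapped. Peg3, Mest and Dlk1 were at 0.123, 0.0556 and 0.0518 CPM per kilobase.

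By parental copy, the 3 maternally expressed genes with a named row, Grb10, Meg3 and Cdkn1c, comprised 2 called higher and 1 called lower. Of the paternally expressed genes, 5 were tested, and 3 of them were called higher, 1 was called lower and Snrpn was not called. Both directions therefore occurred among genes of each parental copy.

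The clusters that hold these genes contain further imprinted genes, of which 20 were listed and 12 were tested. In Pdk4SMKO cells 9 of the 12 were called higher and 2 lower, beside 32.8% and 26.5% of all tested genes. Igf2, Rian, Mirg, Zim1, Peg12, Snurf, Mkrn3 and Slc22a18 passed the filter through their Pdk4SMKO counts, and Phlda2 through its Pdk4fl/fl counts. These shares too are therefore a description only. The median log2 fold change of the 12 was 2.99, a description for the same reason. For it, genes at 0 in Pdk4fl/fl were set to their lower bounds and Rian to its ratio of pooled counts. Of the 20, 9 had 0 counts in every Pdk4fl/fl library, among them 3 of the 12 tested. Over all tested genes the share was 1.83%, and such a gene can pass the filter only through its Pdk4SMKO counts. Only 24025 of the 41721 rows had any count, so rows at 0 were common in the table and the 9 are a description only.

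**Figure D2:**
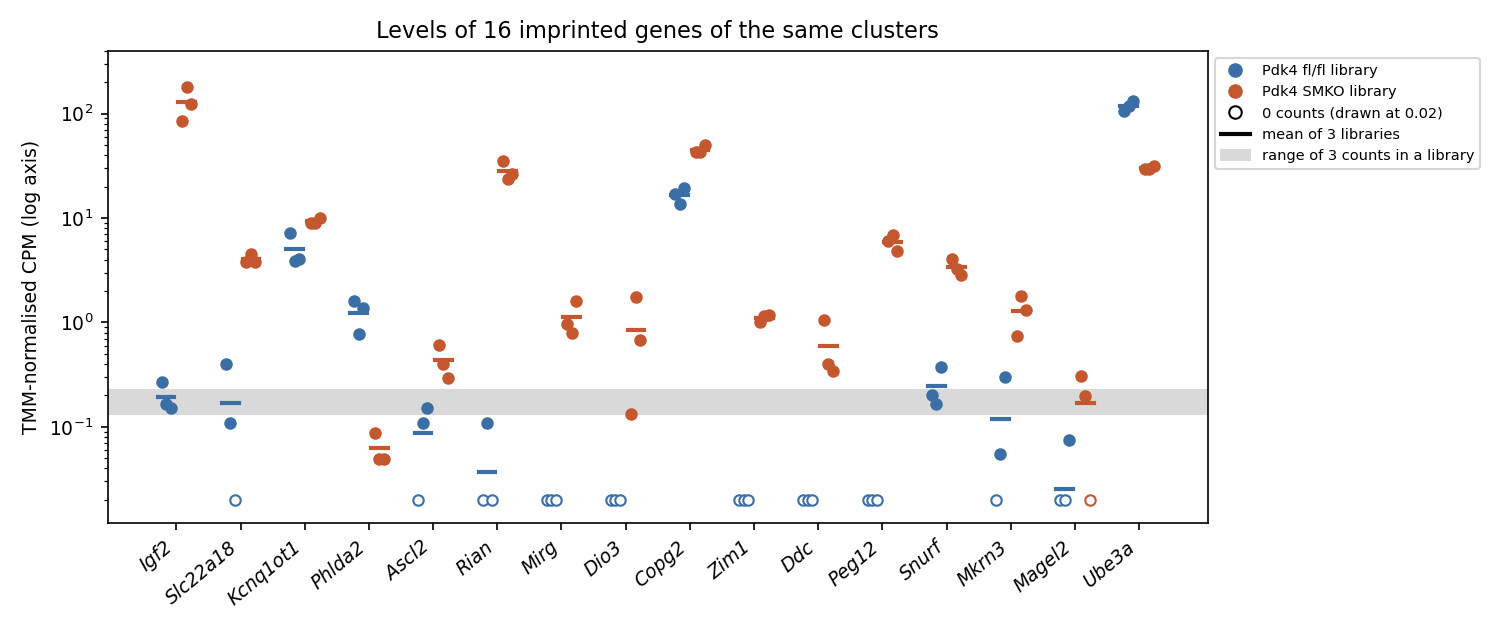
TMM-normalised CPM (log axis) of 16 further imprinted genes of the same clusters in each of 6 libraries, drawn like the plot of the listed genes. Igf2, Rian and Peg12 stood at or under the floor of 3 counts in most Pdk4fl/fl libraries and above 4 CPM in all Pdk4SMKO libraries, whereas Phlda2 and Ube3a were lower in Pdk4SMKO.

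In the cluster of H19 and Cdkn1c on chromosome 7, Igf2 showed the largest change. Igf2 encodes a fetal growth factor, is expressed from the paternal copy and shares its enhancers with H19. It had 4, 3 and 2 counts in the Pdk4fl/fl libraries and 1943, 3620 and 2533 counts in the Pdk4SMKO libraries, or 0.194 ± 0.063 and 130 ± 47.6 CPM (SD, n = 3 each). All Pdk4SMKO libraries were high, with a log2 fold change of 9.34 (SE 0.41, edgeR adjusted p = 3.52e-08). Replicates 2 and 3 of Pdk4fl/fl were at or under the floor of 3 counts, so the size of this fold is uncertain. The H19 locus stayed under the floor in every library.

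Farther along this cluster, the genes nearest Cdkn1c did not share 1 direction. Phlda2, a maternally expressed gene that restrains placental growth, had 24, 14 and 18 counts in Pdk4fl/fl and 2, 1 and 1 counts in Pdk4SMKO libraries. Its log2 fold change of -4.15 (SE 0.59, edgeR adjusted p = 8.75e-05) had the same sign as that of Cdkn1c. Every Pdk4SMKO library was under the floor for Phlda2, so the size of its fold is uncertain. Slc22a18, a maternally expressed gene for a membrane transporter, lies between both and had 6, 2 and 0 counts in Pdk4fl/fl and 87, 90 and 78 counts in Pdk4SMKO libraries. Its log2 fold change was 4.50 (SE 0.59, edgeR adjusted p = 4.93e-05), and 5.86 without Pdk4fl/fl replicate 1. Kcnq1ot1, the paternally expressed antisense RNA that silences the maternally expressed genes of this cluster in cis, had 108, 71 and 53 counts in Pdk4fl/fl and 205, 179 and 202 counts in Pdk4SMKO libraries. Its log2 fold change of 0.88 (SE 0.26, edgeR adjusted p = 0.0103) was under 2-fold and so was not called, though it was called without Pdk4fl/fl replicate 1, at 1.23. Ascl2, a transcription factor gene of the placenta, had 0, 2 and 2 counts in Pdk4fl/fl and 14, 8 and 6 in Pdk4SMKO libraries and was not tested.

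In the cluster of Dlk1 and Meg3 on chromosome 12, genes of both parental copies were higher in Pdk4SMKO cells. Rian, a maternally expressed noncoding RNA that hosts small nucleolar RNAs, had 0, 2 and 0 counts in Pdk4fl/fl and 807, 471 and 544 counts in Pdk4SMKO libraries. The ratio of the counts pooled over the libraries of each genotype, scaled for library size, was 669 (edgeR adjusted p = 6.63e-08). Its 95% counting interval was 185 to 5526 (exact binomial method, counting error only), because only 2 counts stood in Pdk4fl/fl. Mirg, a maternally expressed RNA that hosts microRNAs, had 0 counts in all Pdk4fl/fl and 22, 16 and 33 in Pdk4SMKO libraries, at least 5.71-fold higher (edgeR adjusted p = 2.40e-04). Dio3, the paternally expressed deiodinase that inactivates thyroid hormone, had 0 counts in all Pdk4fl/fl libraries and 3, 35 and 14 counts in Pdk4SMKO libraries. It was not tested, and its bound of at least 4.33-fold fell to 2.08-fold without Pdk4SMKO replicate 2. Rtl1, a paternally expressed gene derived from a retrotransposon, reached 5, 3 and 1 counts in Pdk4SMKO libraries and was at 0 in Pdk4fl/fl.

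In the cluster of Ndn and Snrpn on chromosome 7, 2 paternally expressed genes near Ndn were called higher with it. Peg12 had 0 counts in all Pdk4fl/fl libraries and 138, 138 and 98 counts in Pdk4SMKO libraries, at least 30.0-fold higher (edgeR adjusted p = 3.57e-06). Mkrn3, a RING-finger gene known for its part in the timing of puberty, had 0, 1 and 4 counts in Pdk4fl/fl and 17, 36 and 27 counts in Pdk4SMKO libraries. Its log2 fold change was 3.47 (SE 0.76, edgeR adjusted p = 0.00178), and 5.13 without Pdk4fl/fl replicate 3. Magel2, a MAGE-family gene like Ndn, had 0, 0 and 1 counts in Pdk4fl/fl and 7, 4 and 0 counts in Pdk4SMKO libraries, which overlapped.

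Snurf, which overlaps Snrpn, had 3, 3 and 5 counts in Pdk4fl/fl and 92, 66 and 58 counts in Pdk4SMKO libraries, a log2 fold change of 3.79 (SE 0.43, edgeR adjusted p = 1.64e-05). Ube3a, a ubiquitin ligase gene expressed from the maternal copy in neurons and from both copies elsewhere, moved the other way. It had 1602, 2144 and 1749 counts in Pdk4fl/fl and 666, 599 and 647 counts in Pdk4SMKO libraries, a log2 fold change of -1.97 (SE 0.13, edgeR adjusted p = 3.30e-07). The genes of this cluster thus ranged from a bound of at least 216-fold higher to this decrease.

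In the smaller clusters, Zim1, the maternally expressed zinc-finger gene beside Peg3, had 0 counts in all Pdk4fl/fl and 23, 23 and 24 counts in Pdk4SMKO libraries, at least 5.63-fold higher (edgeR adjusted p = 1.06e-04). Ddc, which encodes aromatic amino acid decarboxylase and lies beside Grb10, had 0 counts in all Pdk4fl/fl and 24, 8 and 7 counts in Pdk4SMKO libraries and was not tested. Its bound of at least 3.03-fold fell to 1.88-fold without Pdk4SMKO replicate 1. Copg2, a coat-protein gene that overlaps Mest, had 254, 251 and 255 counts in Pdk4fl/fl and 968, 867 and 1015 counts in Pdk4SMKO libraries, a log2 fold change of 1.44 (SE 0.16, edgeR adjusted p = 1.39e-05). Zim1 and Peg3 were thus called in the same direction, although Zim1 is expressed from the maternal and Peg3 from the paternal copy.

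Genes just outside the clusters were examined for comparison, a list chosen after values were seen. The 5 nearest tested genes on each side of the 7 clusters made 70 genes, of which 21 were called lower and 23 higher. Together 62.9% of them were called in either direction, near the 59.3% of all tested genes.

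**Figure D3:**
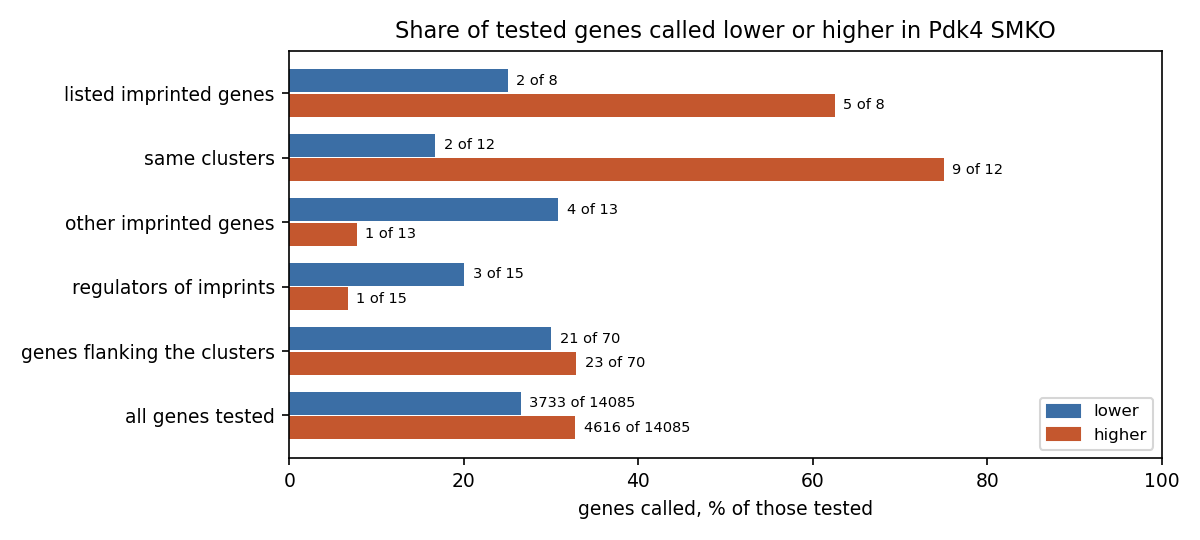
Percent of tested genes called lower (blue) or higher (orange) in Pdk4SMKO cells in 6 gene lists, with the number called of the number tested beside each bar. The listed imprinted genes (5 of 8 higher) and their cluster neighbours (9 of 12 higher) stand beside 32.8% of all tested genes, and most genes of both lists that were called higher passed the filter through their Pdk4SMKO counts.

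Imprinted genes of other clusters were mostly not called. Of the 18 listed, 13 were tested, and 1 was called higher and 4 lower, the latter a share near the 26.5% of all tested genes, while 32.8% of those were higher. The median log2 fold change of the 13 was -0.58. Peg13, a paternally expressed noncoding RNA, had 8, 10 and 4 counts in Pdk4fl/fl and 483, 642 and 614 counts in Pdk4SMKO libraries. Its log2 fold change was 5.86 (SE 0.29, edgeR adjusted p = 6.21e-08). Peg13 passed the filter through its Pdk4SMKO counts, so the share called higher is a description only. Peg10, a paternally expressed gene derived from a retrotransposon and best known from the placenta, had 1472, 1468 and 910 counts in Pdk4fl/fl and 94, 144 and 97 counts in Pdk4SMKO libraries. Its log2 fold change was -3.95 (SE 0.23, edgeR adjusted p = 1.65e-07).

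The other 3 called genes of that list were nearer the 2-fold limit. Impact, a regulator of translation under stress, had a log2 fold change of -1.29 (SE 0.12, edgeR adjusted p = 3.76e-06). Gnas, which encodes a G-protein subunit, had one of -1.23 (SE 0.30, edgeR adjusted p = 0.00335) and was not called without Pdk4fl/fl replicate 3, at -0.75. Zrsr1 had one of -1.05 (SE 0.15, edgeR adjusted p = 9.60e-05) and was not called without Pdk4SMKO replicate 1, at -0.92. Igf2r, the maternally expressed receptor that clears IGF2, stood at 663 ± 169 CPM in Pdk4fl/fl and 439 ± 36.6 CPM in Pdk4SMKO cells (SD, n = 3 each), with a log2 fold change of -0.59 (SE 0.19, edgeR adjusted p = 0.0132). H13 and Sgce, the next most abundant of the uncalled genes, had log2 fold changes of -0.02 and -0.44.

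**Figure D4:**
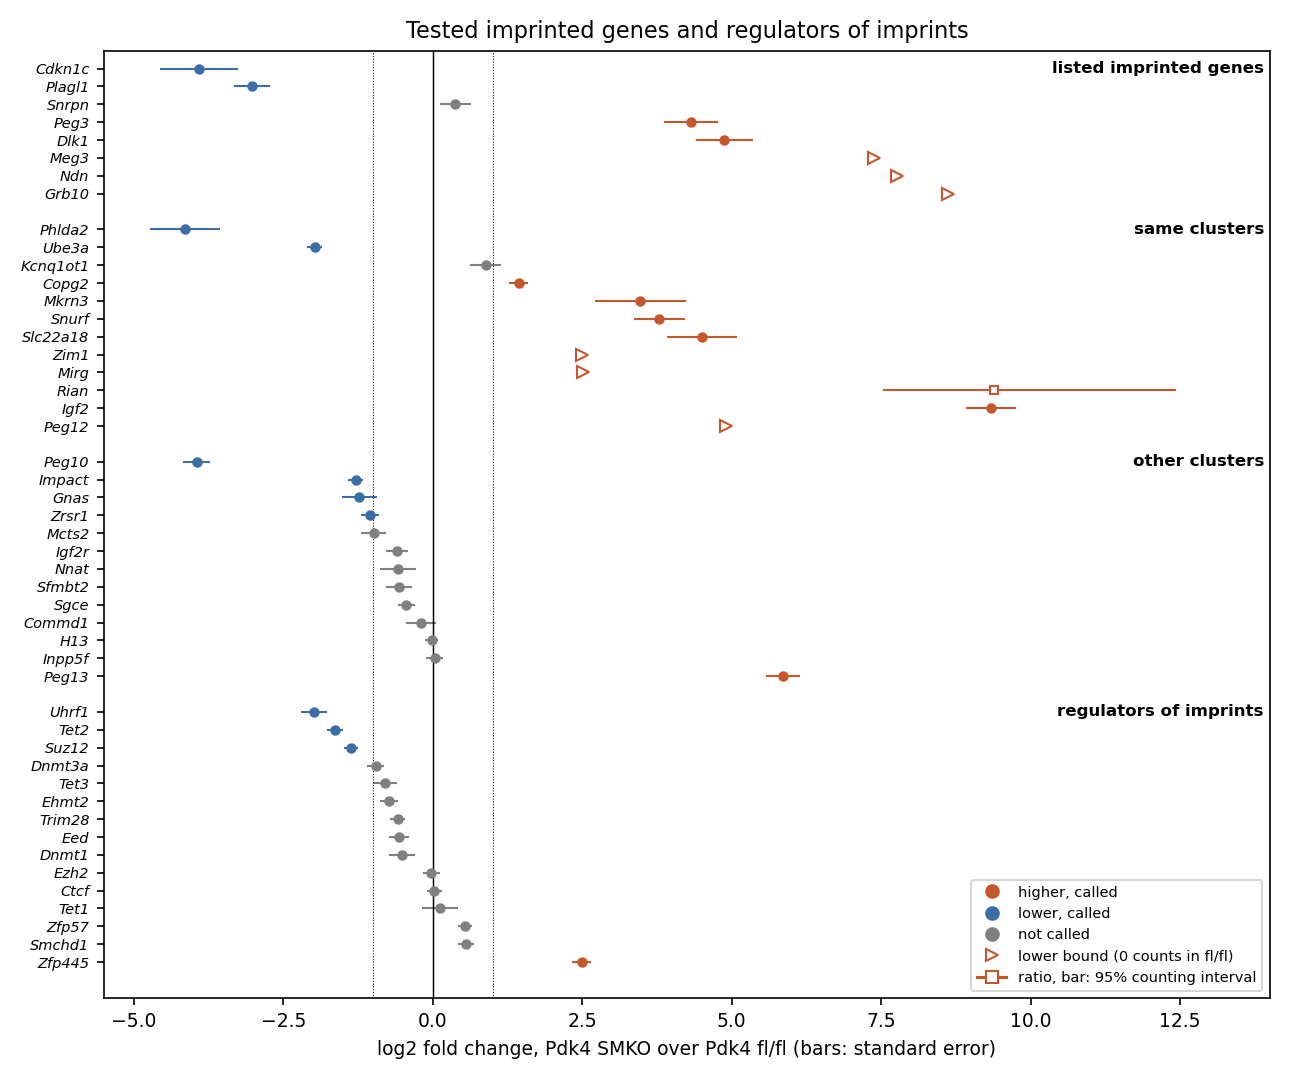
Log2 fold change of every tested gene in 4 lists, Pdk4SMKO over Pdk4fl/fl, with bars for the standard error, a counting interval for Rian, triangles for lower bounds of genes at 0 in Pdk4fl/fl and dotted lines at 2-fold. The listed genes run from -3.91 for Cdkn1c to a bound of at least 394-fold for Grb10, whereas most genes of other clusters and most regulators lie between the dotted lines.

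Genes that write, read, protect or erase imprint methylation were mostly not called. Of the 18 listed, 15 were tested, and 3 were called lower and 1 higher, beside 26.5% and 32.8% of all tested genes. Zfp445, a KRAB zinc-finger gene whose product protects imprints, rose from 8.02 ± 1.30 to 45.0 ± 1.48 CPM (SD, n = 3 each), a log2 fold change of 2.49 (SE 0.16, edgeR adjusted p = 2.72e-07). Uhrf1, which recruits the maintenance methyltransferase to newly copied DNA, fell from 119 ± 18.6 to 29.8 ± 9.58 CPM (SD, n = 3 each), with a log2 fold change of -1.99 (SE 0.22, edgeR adjusted p = 1.45e-05). Tet2, which oxidises methylated cytosine, had a log2 fold change of -1.63 (SE 0.13, edgeR adjusted p = 1.76e-06) and Suz12, a subunit of the Polycomb complex PRC2, one of -1.36 (SE 0.12, edgeR adjusted p = 2.10e-06). The most abundant uncalled regulators were Ehmt2, Trim28 and Dnmt1, a histone methyltransferase, the cofactor of KRAB zinc-finger proteins and the maintenance DNA methyltransferase. Their log2 fold changes were -0.73, -0.59 and -0.52.

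Marker lists of cell types were compared as well, and they did not share 1 direction. The 8 mesothelial markers summed to 74.2 to 99.9 CPM in Pdk4fl/fl and 722 to 1323 CPM in Pdk4SMKO libraries. All 7 of those tested were called higher, beside 32.8% of all tested genes. However, Upk3b, Upk1b, Krt18, Lrrn4 and Wt1 passed the filter through their Pdk4SMKO counts. The 8 fibroblast markers summed to 64.1 to 73.1 CPM in Pdk4fl/fl and 1080 to 2225 CPM in Pdk4SMKO libraries, with 4 of 7 tested called higher and 1 lower, beside 32.8% and 26.5% of all tested genes, and most of the Pdk4SMKO sum was Col14a1. Of the 7 macrophage markers with a row, C1qa, C1qb, Adgre1 and Tyrobp were at 0 counts in every Pdk4fl/fl library and above the floor in every Pdk4SMKO library, and Csf1r was called higher as well. Cd68, the most abundant of this list, was called lower, from 31.2 ± 8.77 to 4.29 ± 2.17 CPM (SD, n = 3 each; log2 fold change -2.85, edgeR adjusted p = 2.51e-05). The macrophage list therefore summed to 21.4 to 38.0 CPM in Pdk4fl/fl and 9.70 to 30.5 CPM in Pdk4SMKO libraries. The endothelial list summed to 16.0 to 24.9 CPM in Pdk4fl/fl and 3.33 to 6.71 CPM in Pdk4SMKO libraries, and proliferation markers to 410 to 491 and 267 to 450 CPM. In the smooth muscle list, 4 of the 8 tested were called higher and 3 lower, beside 32.8% and 26.5% of all tested genes. Acta2 had the highest level in Pdk4SMKO cells and was called higher, whereas Smtn had the highest level in Pdk4fl/fl cells and was called lower. Myh11, Lmod1 and Synpo2 were called higher as well, and Tagln and Cnn1 lower. Lum, Dpep1, Cd34, Myh11 and the macrophage genes that were called higher also passed the filter through their Pdk4SMKO counts. The shares called higher in the marker lists are therefore a description only. The part of the cell make-up in the differences of the imprinted genes was not tested.

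Within the Pdk4SMKO libraries, replicate 1 was the highest for each of the 6 listed imprinted genes that stood above Pdk4fl/fl. Among the 15 cluster neighbours that stood above Pdk4fl/fl, it was the highest for 6. The share over all tested genes was not counted, so these numbers and the ratios below are a description only. Its level over the mean of replicates 2 and 3 was 2.29 for Dlk1, 2.15 for Peg3, 2.07 for Meg3, 1.58 for Mest, 1.38 for Grb10 and 1.11 for Ndn. The same ratio was 2.63 for the macrophage, 1.72 for the endothelial, 1.71 for the mesothelial and 1.64 for the proliferation markers. It was 1.22 for the smooth muscle markers and 0.504 for the fibroblast markers. Igf2 had a ratio of 0.561 and Dio3 one of 0.109, so the imprinted genes did not share 1 order over these libraries. Without replicate 1, Dlk1, Peg3, Meg3, Grb10 and Ndn were still called higher.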

How the data were processed

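The genotype label of each library set its group. The values deposited by the authors were raw counts, reads assigned to each gene, for 6 libraries of Ang II-treated MASMCs in 1 table. The paper names the NEBNext Ultra and the labels the SMARTER library kit. The labels name the build GRCm39, whereas the identifiers and coordinates are those of the C57BL/6NJ strain assembly. The aligner, the counting program and the use of strand are not given in the sources used here. The table holds 41721 rows, 11312 of them without a gene name.

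Counts were filtered with filterByExpr, normalized by TMM and tested on genotype alone with the quasi-likelihood test of edgeR 4.0.16 in R 4.3.3, with Benjamini-Hochberg adjustment over 14085 genes. Genes were called at an adjusted p under 0.05 and an absolute log2 fold change of at least 1. Standard errors were derived from the log2 fold change and its F statistic. Where a genotype had 0 counts in all libraries, the fold was computed against a floor of 3 counts per library. The fits were tested on simulated data. Total counts and the floor per library are given with the results. Scaling by RLE factors, upper quartiles or library size, DESeq2 1.42.0, other filters and thresholds, a replicate block and leaving out each library were tried as alternatives.

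The members and lists were chosen with earlier results of these data known. Every listed imprinted gene is named. Of their cluster neighbours, those with more than 3 counts in any library are named. Of the other imprinted genes and the regulators, up to 6 called genes with the largest changes and up to 3 uncalled genes with the highest mean CPM are named. Promoters were matched by symbol to RefSeq sequences of GRCm38.p6. Peg10, Dio3, Uhrf1 and other genes without a name in the table were found by their description.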

Additional observations from a re-analysis of the deposited data

How the results depend on the processing

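Grb10, Ndn, Meg3, Dlk1 and Peg3 were called higher, and Plagl1 and Cdkn1c lower, under every alternative in which they were tested, and Snrpn was called under none, with log2 fold changes from 0.23 to 0.98. Mest was called higher too with no filter and in 4 of the 6 fits without 1 library, so those gave 5 or 6 listed genes called higher. In these 4 fits Mest passed the filter through its Pdk4SMKO counts. Requiring at least 10 counts in every library removes genes that are absent in 1 genotype by its construction, and left 1 listed gene called lower and 1 higher, 1 cluster neighbour lower and 1 higher, and 0 other imprinted genes higher. Scaling by library size alone moved the median log2 fold change of all genes from 0.12 to 0.72 and the share of calls that were higher from 55.3% to 72.1%. Under it, 1 other imprinted gene was called lower and 3 regulators higher. With the adjusted p alone and no limit on the fold, 8 other imprinted genes were called lower, as were 9 regulators, and 3 regulators were higher. Kcnq1ot1 was called higher with upper-quartile or library-size scaling, and Zrsr1 was not called under either, nor with no filter or the stricter one, while Gnas and Impact were not called with library-size scaling. Leaving out 1 library gave 3 to 5 regulators called lower, with Dnmt3a and Tet3 added without Pdk4fl/fl replicate 3. With a replicate block, 3704 genes were lower and 4577 higher in all, and 2 listed genes were lower and 5 higher, as without it. Same-numbered libraries had deviations correlated at 0.05, 0.11 and 0.26, so the numbers were not taken to pair the libraries. The depth limits the H19 locus, Mest, Dio3, Ddc, Ascl2, Rtl1 and Magel2, whose counts lie near the floor in 1 or both genotypes.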
